A study of Mus musculus with 8 samples.

Results

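The 44 genes described here encode the collagens and stromal matrix of *MMTV-PyMT* breast tumors, with the enzymes that process the matrix and markers of the cells that make it. They were chosen by name, and each was represented by the mean log2 signal of all probe sets that the array annotation assigns to that gene alone. All 44 were measured, among 23152 genes of the array. The members fall into 9 groups by role, namely 7 fibrillar collagens, 3 fibril-associated collagens, 4 network and beaded-filament collagens, 8 basement membrane genes, 6 matricellular genes, 5 fibronectin and elastic fiber genes, 4 matrix proteoglycans, 4 genes of collagen processing and crosslinking, and 3 genes of stromal cell receptors and a stromal protease. Total RNA of female mouse mammary fat pad tumors was hybridized to Affymetrix Mouse Gene ST arrays, with 2 arrays in each of 4 groups: irradiated miR-21-/-;MMTV-PyMT, irradiated miR-21+/+;MMTV-PyMT, untreated miR-21-/-;MMTV-PyMT and untreated miR-21+/+;MMTV-PyMT tumors. Every tumor carried the *MMTV-PyMT* transgene, in which the mammary tumor virus promoter drives the polyomavirus middle T-antigen in the mammary epithelium, and the miR-21 deletion was carried by the whole mouse, stroma included. The radiation dose in the sample labels was 8 Gy. Another source on the study states a different dose. The sources do not say that the arrays came from separate mice, so the p-values below measure the spread between these samples.

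Fibrillar collagens assemble into the cross-striated fibers that give a tissue its tensile strength, whereas collagen IV, laminins and nidogen form the sheet-like basement membrane beneath epithelium and around vessels. Matricellular proteins such as thrombospondins and tenascin-C are secreted into the matrix but act mainly as signals to cells. In mammary tumors much of the interstitial matrix is made by fibroblasts, and epithelial, endothelial and fat cells add basement membrane. In RNA of whole tumors, fewer cells of a type and less RNA per cell cannot be told apart.

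miR-21 is a small RNA that lowers the stability and translation of messages paired to its seed, bases 2 to 8 from the 5′ end. The mature form missing from the miR-21-/- tumors lies on chromosome 11 (GRCm38.p6, chr11:86584120-86584141, minus strand, RefSeq), and the seed is in capitals.
mmu-miR-21a-5p: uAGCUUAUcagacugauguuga

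The first irradiated miR-21-/- array (replicate 1 in the labels) stood apart from the other arrays. Its correlations across genes with the other 7 arrays were 0.898 to 0.915, against 0.955 to 0.987 between all other pairs. The 16 adipocyte markers averaged 10.44 in this array and 4.91 to 5.57 in the other 7, and it was the highest array for 16 of 16. It was also the highest for 12 of 12 endothelial markers (mean 6.64 against 4.97 to 5.81) and for 15 of 16 fibroblast markers that are not members (7.92 against 5.49 to 6.31), and the lowest for 18 of 22 luminal epithelial markers (7.21 against 7.77 to 8.55). The lists of basal epithelial (5.80 against 5.12 to 6.22), pericyte (7.04 against 5.89 to 6.21), macrophage (7.35 against 6.19 to 7.19) and skeletal muscle markers (4.88 against 4.70 to 6.64) are given likewise as means in this array against the range of the other 7. The basal list includes myoepithelial genes and the pericyte list smooth muscle genes, and *Acta2*, *Myh11* and *Cnn1* are in both. This array was the highest for 4 of the 10 basal markers, those genes among them, but not for *Krt5*, *Krt14* or *Krt17*. Whether the content of fat, vessel and fibroblast RNA in this array accounts for its matrix values was not tested. The one probe set that names *Mir21*, which it shares with *Vmp1*, read 1.69 to 2.02 in the 4 miR-21-/- arrays and 2.34 to 3.08 in the 4 miR-21+/+ arrays. It was dimmer than most probe sets, and does not measure the deleted gene alone. Among the 22 luminal epithelial markers, *Krt8* read 8.51 to 10.51 and *Epcam* 8.16 to 9.86 over the 8 arrays. Not all were as bright. *Foxa1* read 4.25 to 5.57, where the array medians over all genes were 5.085 to 5.162. *Csn2* read 2.32 and 3.89 in untreated miR-21+/+ tumors and 8.77 to 12.74 in the other arrays.

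Without radiation, matrix genes were mostly lower in the absence of miR-21, and all 8 basement membrane genes were among them. Of the 44 members, 40 had a lower and 4 a higher mean in untreated miR-21-/- tumors than in untreated miR-21+/+ tumors, with a median log2 fold change of -0.50, against 0.03 over all genes. In 32 members both miR-21-/- arrays lay below both miR-21+/+ arrays, and in 3 both lay above, whereas 24.4% of all genes did not overlap in the lower and 27.7% in the higher direction. A change of 2-fold or more together with an unadjusted p under 0.05, the criterion of the study, was met by 7 members that were lower and by 0 that were higher, against 2.16% and 0.955% of all genes. No member passed a Benjamini-Hochberg adjusted p under 0.05 over all genes in limma (0 of 44, against 0.423% of all genes). An unadjusted p under 0.05 was found for 10 members, against 13.19% of all genes. Without the first irradiated miR-21-/- array, which enters this comparison only through the shared estimate of the spread, 8 lower members met the criterion of the study (2.35% of all genes), 23 had an unadjusted p under 0.05, and 13 passed the adjusted threshold, all lower, against 3.23% of all genes that were lower at this threshold. A fit of the 4 untreated arrays alone called 9, all lower, against 3.29% of all genes. The median was -0.27 without the second untreated miR-21+/+ array, the array with the highest mean over the members in that genotype, and 2 members then met the criterion of the study. Markers of some other cell types were also mostly lower in this comparison. Below 0 were 10 of 12 endothelial (median -0.53, 7 without overlap), 13 of 16 other fibroblast (median -0.33, 6 without overlap), 9 of 11 macrophage (median -0.18) and 5 of 6 skeletal muscle markers (median -0.36). Adipocyte markers were mostly higher (11 of 16, median 0.13). Higher and lower genes numbered 5 and 5 among pericyte (median 0.004), 10 and 12 among luminal (median -0.12) and 4 and 6 among basal epithelial markers (median -0.19). The part of these cell types in the matrix values was not tested.

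In irradiated tumors, the balance of higher and lower members depended on 1 array. With both arrays, 33 members had a higher and 11 a lower mean in irradiated miR-21-/- tumors than in irradiated miR-21+/+ tumors, and the median log2 fold change was 0.50 (0.00 over all genes). At the criterion of the study, 4 members were higher (*Fbln1*, *Pdgfra*, *Lamb1* and *Thbs2*) and 4 were lower (*Col11a1*, *Tnc*, *Thbs1* and *Ctgf*), against 1.33% and 2.63% of all genes. Both miR-21-/- arrays lay above both miR-21+/+ arrays in 11 members and below them in 5, against 18.9% and 22.6% of all genes. One member, *Col11a1*, passed an adjusted p of 0.05 in limma (0.406% of all genes did). Without the first irradiated miR-21-/- array, the median was -0.03, 21 members were higher and 23 lower in mean, and at the criterion of the study 0 were higher and 4 were lower, against 1.21% and 2.07% of all genes. These 4 were *Col11a1*, *Thbs1*, *Tnc* and *Lama4*. Without the second array of that group, the median was 1.10.

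**Figure D1:**
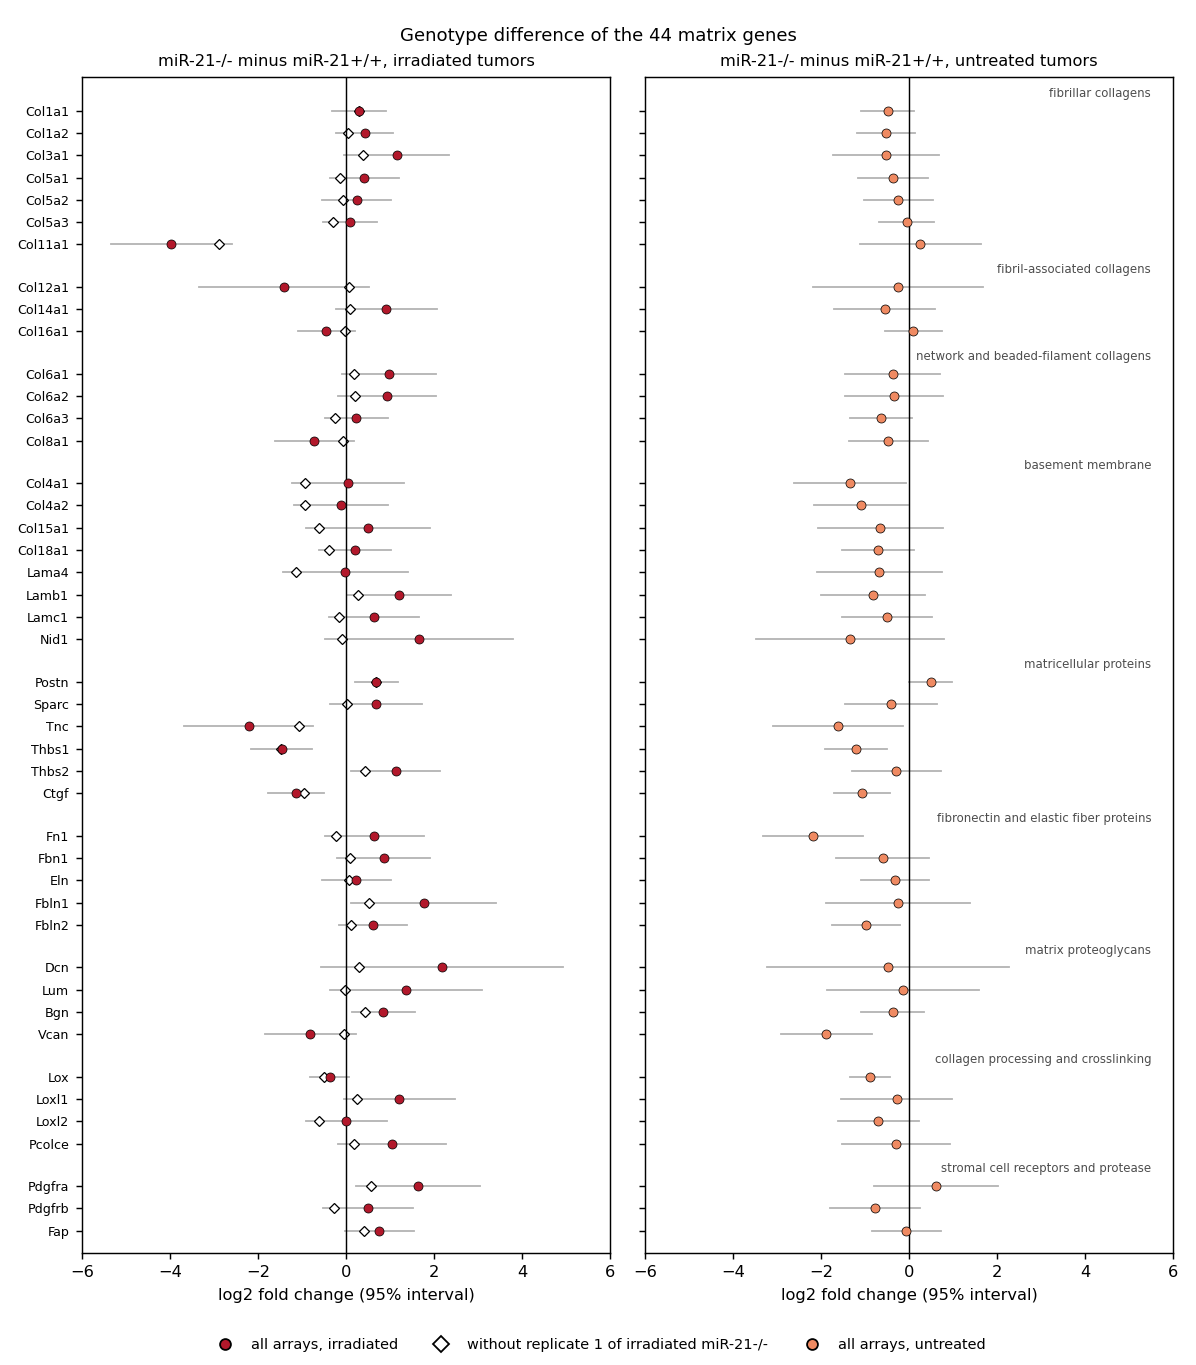
Log2 fold change of miR-21-/- over miR-21+/+ for each of the 44 members, in irradiated tumors (left) and untreated tumors (right). Filled circles are the fit of all 8 arrays with 95% intervals from limma, and open diamonds leave out the first irradiated miR-21-/- array. In untreated tumors 40 of 44 circles lie below 0, and in irradiated tumors most diamonds lie to the left of their circles.

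The members that passed the adjusted threshold over both treatments were the matricellular genes *Thbs1* and *Ctgf*, both lower in the absence of miR-21. *Thbs1* encodes thrombospondin 1, which binds cell receptors and activates latent TGF-beta. Its log2 level was 8.79 and 8.77 in irradiated miR-21-/- tumors, against 10.12 and 10.38 in irradiated miR-21+/+ tumors, and 8.93 and 9.19 in untreated miR-21-/- tumors, against 9.80 and 10.73 in untreated miR-21+/+ tumors. All 4 miR-21-/- arrays lay below all 4 miR-21+/+ arrays. Over both treatments *Thbs1* averaged 8.92 ± 0.19 in miR-21-/- tumors and 10.26 ± 0.40 in miR-21+/+ tumors (SD, n = 4 each), and fell by 1.34 on the log2 scale (standard error 0.21, 95% interval -1.83 to -0.84, adjusted p = 0.0263 in limma). The difference was -1.46 in irradiated and -1.21 in untreated tumors, and all 16 probe sets of the gene were lower in both.

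*Ctgf*, named *Ccn2* in RefSeq, encodes a secreted protein induced by TGF-beta and by mechanical load. Its log2 level was 6.07 and 6.43 in irradiated miR-21-/- tumors, against 7.47 and 7.30 in irradiated miR-21+/+ tumors, and 6.26 and 6.42 in untreated miR-21-/- tumors, against 7.03 and 7.79 in untreated miR-21+/+ tumors. Again no miR-21-/- array reached the lowest miR-21+/+ array. *Ctgf* averaged 6.29 ± 0.17 in miR-21-/- tumors and 7.40 ± 0.32 in miR-21+/+ tumors (SD, n = 4 each), and fell by 1.10 (standard error 0.19, 95% interval -1.55 to -0.65, adjusted p = 0.0355 in limma). With 4 arrays against 4, a two-sided exact permutation test gave p = 0.0286 for both genes, the smallest it can give. This value follows from the lack of overlap alone and adds nothing to it. The test shuffled arrays without regard to treatment. In this direction 6.14% of all genes had no overlap, *Tnc* and *Lox* among them. The 2 members lower at an adjusted p under 0.05 compare with 1.98% of all genes. The adjusted p of *Thbs1* ranged between 0.0054 and 0.159 over 16 other settings, of which 10 kept it under 0.05, and that of *Ctgf* between 0.0045 and 0.183, with 7 under 0.05. Leaving out either array of the untreated miR-21-/- or the irradiated miR-21+/+ tumors, or the first untreated miR-21+/+ array, was enough to end both calls, at adjusted p values of 0.0519 to 0.183, and leaving out the second untreated miR-21+/+ array ended that of *Ctgf* (adjusted p = 0.0755), while the fold changes stayed between -1.57 and -1.10 for *Thbs1* and between -1.29 and -0.91 for *Ctgf*.

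Tenascin-C, encoded by *Tnc*, is an adhesion-modulating protein that is typically deposited at sites of wound repair and in tumor stroma. *Tnc* had log2 levels of 4.87 and 7.17 in irradiated miR-21-/- tumors, against 8.44 and 8.04 in irradiated miR-21+/+ tumors, and 6.34 and 6.57 in untreated miR-21-/- tumors, against 8.26 and 7.88 in untreated miR-21+/+ tumors. The miR-21-/- arrays were again all below the miR-21+/+ arrays, and the first irradiated miR-21-/- array was the lowest of the 8. The mean difference over both treatments was -1.91 (standard error 0.45, adjusted p = 0.0831 in limma), and -1.33 (adjusted p = 0.0036) without that array. All 24 probe sets of *Tnc* were lower in irradiated and in untreated miR-21-/- tumors.

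The other 3 matricellular genes did not share this pattern. *Postn*, encoding periostin, which promotes collagen fibrillogenesis, had a mean difference of 0.59 over both treatments (adjusted p = 0.101 in limma), with 16 of 19 probe sets higher. *Sparc*, encoding a collagen-binding glycoprotein also called osteonectin, had a difference of 0.68 in irradiated tumors (0.03 without the first irradiated miR-21-/- array) and -0.41 in untreated tumors. *Thbs2*, a second thrombospondin gene, was higher in irradiated miR-21-/- tumors by 1.13 (adjusted p = 0.314), and the difference was 0.43 without replicate 1 of this group. As a group, the 6 genes had a median of -0.23 in irradiated and -0.74 in untreated tumors, and -0.46 in irradiated tumors without that replicate.

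**Figure D2:**
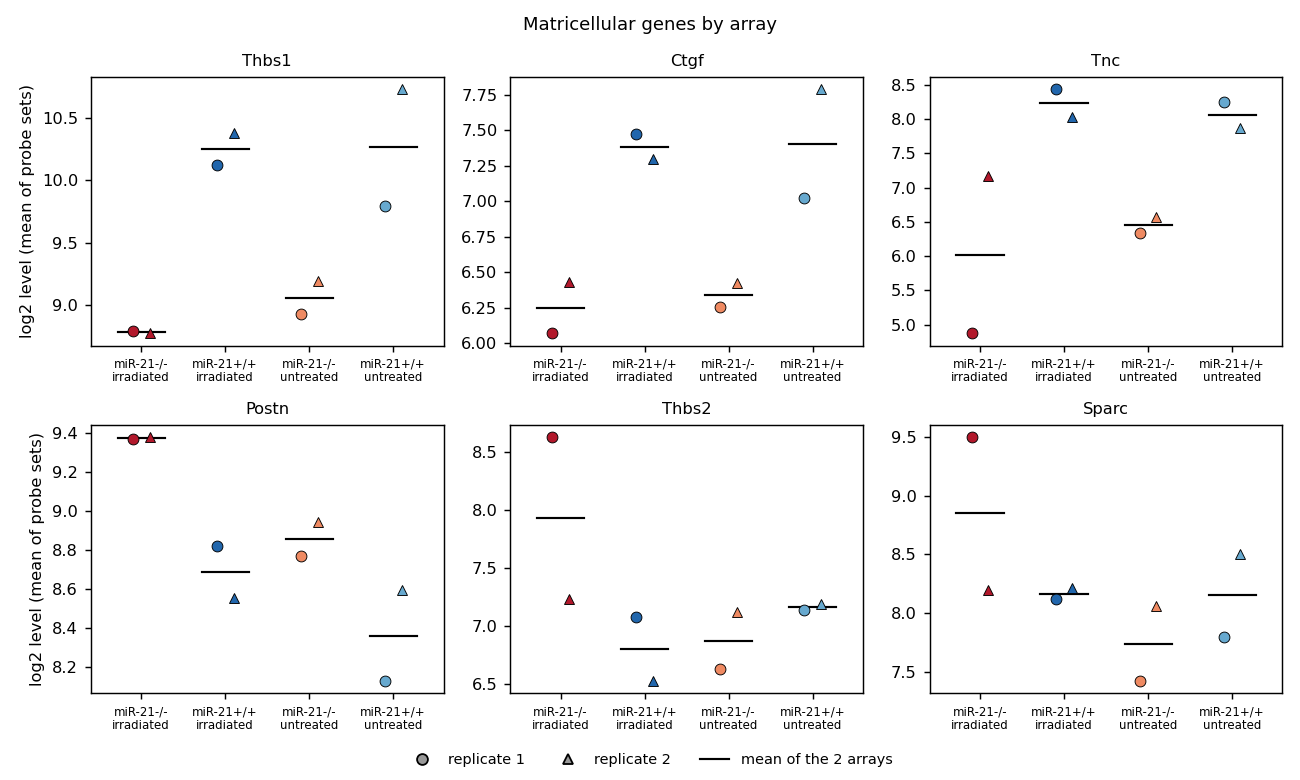
Log2 level (mean of probe sets) of the 6 matricellular genes in each array, with circles for replicate 1, triangles for replicate 2 and bars for the mean of the 2 arrays. In *Thbs1*, *Ctgf* and *Tnc* the 4 miR-21-/- arrays lie below the 4 miR-21+/+ arrays, while *Postn* was highest in the irradiated miR-21-/- arrays (9.37 and 9.38).

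Basement membrane genes differed in one direction in untreated tumors and by array in irradiated tumors. All 8 were lower in untreated miR-21-/- tumors than in untreated miR-21+/+ tumors, and their median was -0.77. The arrays did not overlap in any of the 8, against 24.4% of all genes that were lower without overlap. Endothelial markers, whose cells also make basement membrane, had a median of -0.53 in the same comparison, with 10 of 12 lower and 7 of these without overlap, and their part was not tested. The array means of the group were 6.33 and 6.49 in untreated miR-21-/- tumors, against 7.32 and 7.29 in untreated miR-21+/+ tumors. *Col4a1* and *Col4a2*, which encode the 2 chains of the common collagen IV network, were lower by 1.34 and 1.08 (adjusted p = 0.359 and 0.372 in limma), and passed at adjusted p = 0.0111 and 0.0133 without the first irradiated miR-21-/- array. *Nid1*, encoding the nidogen that bridges collagen IV and laminin, was at -1.34, and all 21 of its probe sets were lower. The laminin chain genes *Lama4* (-0.68), *Lamb1* (-0.83) and *Lamc1* (-0.50) and the genes of the basement membrane proteoglycan collagens *Col15a1* (-0.65) and *Col18a1* (-0.71) had smaller differences.

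In the irradiated miR-21-/- tumors the 8 basement membrane genes disagreed between the arrays. Their mean was 8.40 in replicate 1 and 6.38 in replicate 2, against 6.89 and 6.86 in irradiated miR-21+/+ tumors, so that one array lay above and the other below. Replicate 1 was the highest of all 8 arrays in each of the 8 genes. *Lamc1*, encoding the laminin gamma 1 chain of most laminins, had log2 levels of 9.40 and 7.82 in irradiated miR-21-/- tumors, against 7.97 and 7.99 in irradiated miR-21+/+ tumors, and 7.71 and 7.93 in untreated miR-21-/- tumors, against 8.28 and 8.37 in untreated miR-21+/+ tumors. The other 7 arrays spanned 7.71 to 8.37, so that replicate 1 stood above all of them. *Lamb1*, encoding the beta 1 chain, had levels of 9.25 and 7.40 in irradiated miR-21-/- tumors, against 7.01 and 7.25 in irradiated miR-21+/+ tumors, and 7.25 and 7.19 in untreated miR-21-/- tumors, against 8.01 and 8.08 in untreated miR-21+/+ tumors. After that replicate, the untreated miR-21+/+ arrays had the highest *Lamb1* values. The group median in irradiated tumors was 0.35 with both arrays and -0.50 without replicate 1. Over both treatments it was -0.17, and without that array -0.68, with 5 lower genes (*Col4a1*, *Col4a2*, *Lama4*, *Nid1* and *Col18a1*) past an adjusted p of 0.05, against 4.22% of all genes.

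*Col4a1* and *Col4a2* are transcribed in opposite directions from a shared promoter region on chromosome 8. *Col4a1* had log2 levels of 8.34 and 6.38 in irradiated miR-21-/- tumors, against 7.61 and 7.03 in irradiated miR-21+/+ tumors, and 6.70 and 6.79 in untreated miR-21-/- tumors, against 8.15 and 8.02 in untreated miR-21+/+ tumors. *Col4a2* had 7.44 and 5.82 in irradiated miR-21-/- tumors, against 6.93 and 6.56 in irradiated miR-21+/+ tumors, and 5.98 and 6.08 in untreated miR-21-/- tumors, against 7.11 and 7.12 in untreated miR-21+/+ tumors. In both genes the untreated miR-21-/- tumors had the lowest and the untreated miR-21+/+ tumors the highest mean, and their genotype differences were -1.34 and -1.08 in untreated tumors. In irradiated tumors they were 0.04 and -0.12 with both arrays, of which one lay above and one below, and -0.94 and -0.93 without the first irradiated miR-21-/- array. The promoter windows of the pair (250 bases before to 50 after the start, GRCm38.p6) are shown because they overlap in part. The motif CCAAT or its reverse complement ATTGG is in capitals, at a different site in each window. The windows lie at chr8:11312777-11313076 on the minus strand and chr8:11312555-11312854 on the plus strand, and overlap by 78 bases.
Col4a1: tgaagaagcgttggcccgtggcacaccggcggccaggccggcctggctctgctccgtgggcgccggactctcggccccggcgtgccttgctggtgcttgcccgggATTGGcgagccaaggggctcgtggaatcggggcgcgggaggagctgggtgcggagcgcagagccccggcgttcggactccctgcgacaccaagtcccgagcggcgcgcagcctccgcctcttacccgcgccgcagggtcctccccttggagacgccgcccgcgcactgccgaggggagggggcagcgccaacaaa
Col4a2: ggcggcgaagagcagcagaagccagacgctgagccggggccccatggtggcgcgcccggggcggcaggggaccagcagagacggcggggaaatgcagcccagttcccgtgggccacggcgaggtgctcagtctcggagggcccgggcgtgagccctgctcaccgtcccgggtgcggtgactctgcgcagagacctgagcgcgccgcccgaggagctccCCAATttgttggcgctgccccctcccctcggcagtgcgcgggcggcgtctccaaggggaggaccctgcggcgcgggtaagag
CCAAT on either strand was found in 12 of 32 such windows of 27 members in the RefSeq table, or 37.5%, and in 37.4% of 32851 windows of all genes. TATAAA, or TTTATA on the other strand, was found in 15.6% of the windows of members and 13.6% of all windows. Both shares were close to those of all promoters.

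**Figure D3:**
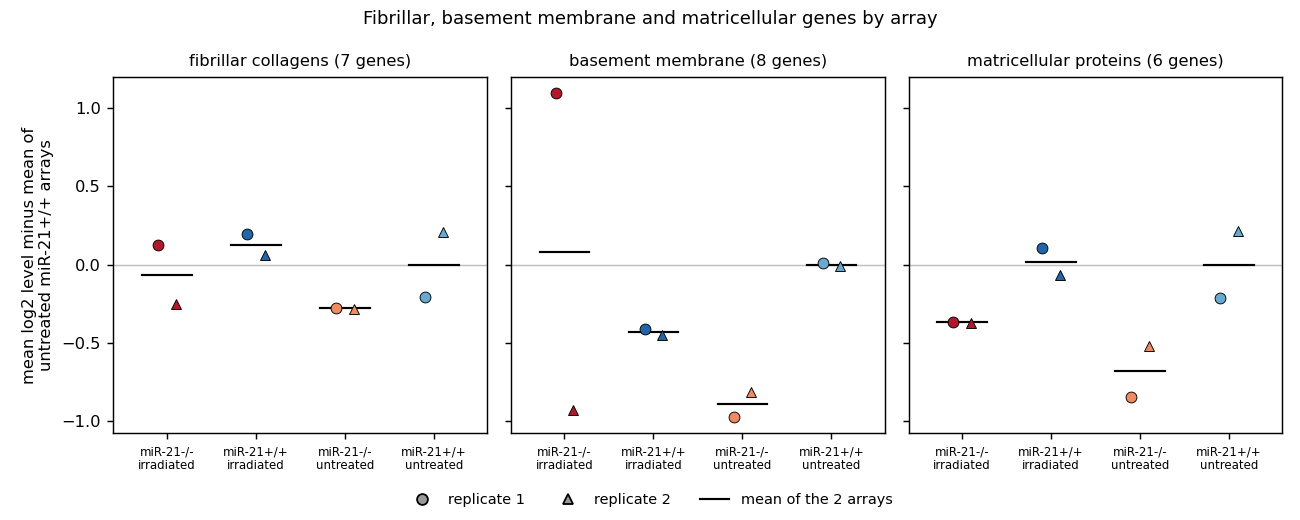
Mean log2 level of the fibrillar, basement membrane and matricellular genes in each array, minus the mean of the 2 untreated miR-21+/+ arrays. Circles are replicate 1, triangles replicate 2 and bars the mean. The 2 irradiated miR-21-/- arrays lie apart in the basement membrane genes (8.40 and 6.38 before subtraction) and have the same mean in the matricellular genes (7.87 in both). Single matricellular genes differed in opposite directions, with replicate 1 minus replicate 2 between -2.30 (*Tnc*) and 1.39 (*Thbs2*).

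Fibrillar collagens had a smaller median difference in untreated tumors than the basement membrane and matricellular genes. Of the 7 genes, 6 were lower in untreated miR-21-/- tumors, with a group median of -0.37, and 6 were higher in mean in irradiated miR-21-/- tumors, with a median of 0.30 (-0.08 without replicate 1 of that group). *Col1a1*, encoding the main chain of collagen I, had log2 levels of 9.27 and 9.25 in irradiated miR-21-/- tumors, against 9.15 and 8.77 in irradiated miR-21+/+ tumors, and 8.62 and 8.79 in untreated miR-21-/- tumors, against 8.84 and 9.56 in untreated miR-21+/+ tumors. The groups overlapped over both treatments, and the difference was 0.30 in irradiated and -0.49 in untreated tumors (adjusted p = 0.646 and 0.492 in limma). *Col1a2*, encoding the other collagen I chain, was at 0.42 and -0.52 in irradiated and untreated tumors, and *Col3a1*, encoding the collagen that accompanies it in soft tissue, at 1.15 and -0.53. Without replicate 1 of that group the irradiated differences were 0.05 and 0.38. The collagen V chains *Col5a1*, *Col5a2* and *Col5a3*, which set fibril diameter, had differences of 0.41, 0.24 and 0.09 in irradiated tumors (-0.14, -0.08 and -0.28 without replicate 1) and -0.37, -0.24 and -0.06 in untreated tumors. None of these 6 genes passed the criterion of the study in either comparison.

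*Col11a1*, encoding a minor fibrillar collagen of cartilage that is also made in tumor stroma, had the lowest log2 fold change of all members in irradiated tumors. Its log2 levels were 4.64 and 6.81 in irradiated miR-21-/- tumors, against 9.56 and 9.83 in irradiated miR-21+/+ tumors, and 7.75 and 7.93 in untreated miR-21-/- tumors, against 7.73 and 7.43 in untreated miR-21+/+ tumors. Both irradiated miR-21-/- arrays were the lowest of the 8 and both irradiated miR-21+/+ arrays the highest, while the untreated groups lay in between. In irradiated tumors *Col11a1* fell by 3.97 on the log2 scale in the absence of miR-21 (standard error 0.59, 95% interval -5.35 to -2.60, adjusted p = 0.0481 in limma), and all 38 probe sets were lower. Without the first irradiated miR-21-/- array the difference was -2.89 (adjusted p = 0.002), and the adjusted p was above 0.05 in 12 of 17 other settings, the fold change staying between -5.06 and -2.89. In untreated tumors the difference was 0.26 (standard error 0.59). The radiation difference was -2.11 without miR-21 and 2.12 with it (adjusted p = 0.313 and 0.31), and the test of the difference between the 2 gave -4.23 (standard error 0.83, adjusted p = 0.221), and -3.14 (adjusted p = 0.0051) without replicate 1.
Col11a1: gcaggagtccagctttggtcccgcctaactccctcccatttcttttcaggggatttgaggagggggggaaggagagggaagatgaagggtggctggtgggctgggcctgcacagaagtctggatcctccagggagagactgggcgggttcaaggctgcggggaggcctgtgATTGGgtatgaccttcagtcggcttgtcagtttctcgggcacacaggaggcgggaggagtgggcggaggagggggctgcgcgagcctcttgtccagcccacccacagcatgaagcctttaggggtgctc
The window above is its promoter in RefSeq (GRCm38.p6, chr3:114030290-114030589, plus strand), printed because the gene carried the largest difference, again with CCAAT or ATTGG in capitals.

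The fibril-associated collagens, which coat the surface of fibrils, had no member at the criterion of the study in either genotype comparison. *Col12a1*, encoding collagen XII, had log2 levels of 5.17 and 8.10 in irradiated miR-21-/- tumors, against 8.60 and 7.48 in irradiated miR-21+/+ tumors, and 7.59 and 7.82 in untreated miR-21-/- tumors, against 7.87 and 8.05 in untreated miR-21+/+ tumors. The first irradiated miR-21-/- array lay 2.32 below the lowest other array, the reverse of its position in most members. The difference of *Col12a1* was -1.41 in irradiated tumors, 0.06 without that array, and -0.25 in untreated tumors. *Col14a1* was higher by 0.91 and *Col16a1* lower by 0.45 in irradiated miR-21-/- tumors, and 0.10 and -0.03 without that array. Among the network and beaded-filament collagens, *Col6a1*, encoding a chain of the microfibrillar collagen VI, had log2 levels of 8.66 and 7.07 in irradiated miR-21-/- tumors, against 7.15 and 6.62 in irradiated miR-21+/+ tumors, and 6.71 and 6.85 in untreated miR-21-/- tumors, against 7.04 and 7.26 in untreated miR-21+/+ tumors. Its 7 arrays other than that replicate spanned 6.63 to 7.27. The differences of *Col6a1*, *Col6a2* and *Col6a3* were 0.98, 0.94 and 0.24 in irradiated tumors, and 0.18, 0.20 and -0.26 without that replicate. In untreated tumors they were -0.37, -0.35 and -0.64. *Col8a1*, a network-forming collagen of vessel walls, was at -0.72 in irradiated tumors, -0.08 without that replicate, and -0.47 in untreated tumors.

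Fibronectin showed the largest difference in untreated tumors. *Fn1*, whose product is laid down early and guides collagen assembly, had log2 levels of 10.25 and 8.53 in irradiated miR-21-/- tumors, against 8.76 and 8.74 in irradiated miR-21+/+ tumors, and 7.41 and 7.54 in untreated miR-21-/- tumors, against 9.43 and 9.88 in untreated miR-21+/+ tumors. The untreated miR-21-/- arrays were the lowest of the 8, and both untreated arrays of that genotype lay below both of the other. The difference was -2.18 in untreated tumors (standard error 0.48, 95% interval -3.31 to -1.05, adjusted p = 0.116 in limma), with all 41 probe sets lower. In irradiated tumors it was 0.64, and -0.22 without the first irradiated miR-21-/- array. The untreated difference passed at adjusted p = 0.0016 without that array. The difference between the radiation responses of the genotypes was 2.82 (standard error 0.68, adjusted p = 0.34), and 1.96 (adjusted p = 0.0373) without that array, when the 2 members past the adjusted threshold were *Fn1* and *Col11a1* in opposite directions (0.54% of all genes passed).

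The elastic fiber genes followed fibronectin in direction in untreated tumors. *Fbn1*, encoding the fibrillin of microfibrils, was at -0.60, *Eln*, encoding elastin, at -0.32, and the fibulin genes *Fbln1* and *Fbln2* at -0.25 and -0.98, where only *Fbln1* overlapped between genotypes. *Fbln1* had log2 levels of 8.27 and 5.78 in irradiated miR-21-/- tumors, against 4.91 and 5.60 in irradiated miR-21+/+ tumors, and 5.40 and 5.13 in untreated miR-21-/- tumors, against 5.22 and 5.81 in untreated miR-21+/+ tumors. The difference of 1.77 in irradiated tumors (adjusted p = 0.333 in limma) was 0.52 without replicate 1, which read 2.46 above every other array. *Fbn1*, *Eln* and *Fbln2* were at 0.85, 0.24 and 0.61 in irradiated tumors, and at 0.08, 0.06 and 0.12 without that replicate.

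Among the matrix proteoglycans, versican differed by genotype without radiation and decorin by array. *Vcan*, encoding a large hyaluronan-binding proteoglycan, had log2 levels of 6.02 and 7.53 in irradiated miR-21-/- tumors, against 7.38 and 7.79 in irradiated miR-21+/+ tumors, and 5.26 and 5.07 in untreated miR-21-/- tumors, against 7.24 and 6.85 in untreated miR-21+/+ tumors. Both untreated miR-21-/- arrays were below all 6 others. The difference in untreated tumors was -1.88 (standard error 0.45, adjusted p = 0.133 in limma, 0.0032 without the first irradiated miR-21-/- array), and in irradiated tumors -0.81 (-0.05 without that array). *Dcn*, encoding decorin, a small leucine-rich proteoglycan that binds collagen fibrils, had log2 levels of 11.73 and 7.95 in irradiated miR-21-/- tumors, against 6.60 and 8.73 in irradiated miR-21+/+ tumors, and 6.43 and 6.68 in untreated miR-21-/- tumors, against 6.36 and 7.70 in untreated miR-21+/+ tumors. Its 2 arrays differed by 3.78 in irradiated miR-21-/- tumors, by 2.13 in irradiated miR-21+/+ tumors and by 1.34 in untreated miR-21+/+ tumors, and in each of these groups *Dcn* had the widest gap of all members. Its difference was 2.18 in irradiated tumors (standard error 1.18), 0.29 without replicate 1, and -0.48 in untreated tumors. *Lum*, encoding a second small leucine-rich proteoglycan, lumican, was at 1.37 in irradiated tumors and at -0.02 without replicate 1. *Bgn*, encoding biglycan, had 9.52 and 8.71 in irradiated miR-21-/- tumors, against 8.11 and 8.43 in irradiated miR-21+/+ tumors, and 7.93 and 8.07 in untreated miR-21-/- tumors, against 8.10 and 8.64 in untreated miR-21+/+ tumors, and a difference of 0.84 in irradiated tumors (0.44 without that array).

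Of the genes that process collagen, *Lox*, encoding the lysyl oxidase that starts crosslinking, was at -0.37 in irradiated and -0.88 in untreated tumors, and all 4 miR-21-/- arrays lay below the 4 miR-21+/+ arrays (mean difference -0.63, adjusted p = 0.0672 in limma). *Loxl1*, encoding a related oxidase that acts on elastin, had log2 levels of 8.04 and 6.10 in irradiated miR-21-/- tumors, against 5.76 and 5.95 in irradiated miR-21+/+ tumors, and 5.78 and 5.59 in untreated miR-21-/- tumors, against 5.75 and 6.19 in untreated miR-21+/+ tumors. One array, the first irradiated miR-21-/- array, carried its difference of 1.21 in irradiated tumors, which was 0.24 without it. *Loxl2*, another lysyl oxidase gene, was at 0.00 in irradiated tumors, -0.61 without that array, and -0.70 in untreated tumors. *Pcolce*, encoding an enhancer of procollagen cleavage, was at 1.05 in irradiated tumors, 0.18 without that array, and -0.30 in untreated tumors. *Pdgfra*, encoding a PDGF receptor of fibroblasts, was the one member that was higher in all 4 miR-21-/- arrays than in all 4 miR-21+/+ arrays, against 4.13% of all genes. Its log2 levels were 8.72 and 6.60 in irradiated miR-21-/- tumors, against 6.37 and 5.71 in irradiated miR-21+/+ tumors, and 6.62 and 6.54 in untreated miR-21-/- tumors, against 5.74 and 6.20 in untreated miR-21+/+ tumors. Its mean difference was 1.12 (standard error 0.43, adjusted p = 0.235 in limma), with all 17 probe sets higher, and 0.59 (adjusted p = 0.12) without the first irradiated miR-21-/- array. *Pdgfrb*, the receptor gene of pericytes and fibroblasts, was at 0.50 in irradiated tumors, -0.27 without that array, and -0.78 in untreated tumors. *Fap*, encoding a protease of activated fibroblasts, was at 0.75 in irradiated tumors, 0.41 without that array, and -0.06 in untreated tumors.

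Over both treatments, 4 members were lower in every miR-21-/- array than in every miR-21+/+ array, namely *Thbs1*, *Ctgf*, *Tnc* and *Lox*, against 6.14% of all genes. At the criterion of the study 5 were lower (*Tnc*, *Col11a1*, *Vcan*, *Thbs1* and *Ctgf*) and 1 was higher (*Pdgfra*), against 1.47% and 0.488% of all genes. The median over the members was -0.02. Without the first irradiated miR-21-/- array it was -0.24, 37 of 44 were lower in mean, 7 were lower and 0 higher at the criterion of the study (1.42% and 0.652% of all genes), and 12 had an adjusted p under 0.05 in the lower direction, against 4.22% of all genes, and 0 were higher, against 2.28%. To *Thbs1*, *Ctgf*, *Tnc*, *Col11a1* and the 5 basement membrane genes above, this fit added *Fn1* (-1.20), *Vcan* (-0.97) and *Lox* (-0.69). With 1 array left in a group, that array is assumed to vary like the other groups.

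Irradiation gave few differences in the matrix genes of miR-21+/+ tumors. Between irradiated and untreated miR-21+/+ tumors, 14 members had a higher and 30 a lower mean, with a median of -0.11 (0.00 over all genes). *Col11a1* was higher at the criterion of the study (1.16% of all genes were) and *Eln* was lower (0.942%). Of the members, 0 of 44 passed the adjusted threshold in limma (0.212% of all genes did). An unadjusted p under 0.05 was found for 3 members, against 8.88% of all genes. Without the first irradiated miR-21-/- array, which bears on this comparison only through the spread, *Col11a1* (2.12, adjusted p = 0.0013) and *Lamb1* (-0.92, adjusted p = 0.029) passed. *Eln* had log2 levels of 6.26 and 5.91 in irradiated miR-21-/- tumors, against 6.38 and 5.31 in irradiated miR-21+/+ tumors, and 6.79 and 6.64 in untreated miR-21-/- tumors, against 6.97 and 7.10 in untreated miR-21+/+ tumors. Both irradiated miR-21+/+ arrays were below both untreated ones, by 1.19 in mean (adjusted p = 0.311). Over both genotypes, 1 of 44 members, *Eln*, had its 4 irradiated arrays below the 4 untreated arrays, against 2.76% of all genes. Its mean difference was -0.91 (adjusted p = 0.209 in limma). The two-sided exact permutation p of 0.0286 follows from that lack of overlap alone. *Lum* was the 1 member with all 4 irradiated arrays above, against 1.97% of all genes. Its mean difference was 1.06, and 0.36 without the first irradiated miR-21-/- array. These counts of members were close to the shares of all genes. Both irradiated arrays were lower than both untreated ones in 10 members and higher in 3, against 22.3% and 22.4% of all genes, and 6 of the 10 were basement membrane genes.

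In miR-21-/- tumors, irradiation gave more and larger differences, most of which rested on 1 array. Of the 44 members, 35 had a higher mean in irradiated than in untreated miR-21-/- tumors, with a median of 0.84 (-0.04 over all genes), and 17 were higher at the criterion of the study and 1 lower, against 1.7% and 1.33% of all genes. The 17 were *Dcn* (3.29), *Nid1* (2.38), *Fn1* (1.92), *Lum*, *Fbln1*, *Vcan*, *Loxl1*, *Col14a1*, *Col3a1*, *Pcolce*, *Fbn1*, *Pdgfrb*, *Bgn*, *Sparc*, *Col6a1*, *Fap* and *Thbs2*, and the one lower was *Col11a1*. Of the 44, 0 passed the adjusted threshold in limma (0.013% of all genes did) and 22 had an unadjusted p under 0.05 (11% of all genes did). *Nid1* had log2 levels of 9.83 and 6.32 in irradiated miR-21-/- tumors, against 6.28 and 6.56 in irradiated miR-21+/+ tumors, and 5.71 and 5.69 in untreated miR-21-/- tumors, against 7.01 and 7.08 in untreated miR-21+/+ tumors. The first irradiated miR-21-/- array read above all others, and the untreated miR-21-/- arrays were the lowest. Without replicate 1 of the irradiated tumors the median was 0.38, with 35 members higher in mean, of which 31 were also higher with it, and 2 (*Vcan* and *Fn1*) were higher and 1 (*Col11a1*) lower at the criterion of the study, against 1.08% and 0.721% of all genes. *Vcan* was then the one member past the adjusted threshold, at 2.37 (standard error 0.26, adjusted p = 0.0132, against 0.177% of all genes that were higher). Macrophage markers were higher in irradiated miR-21-/- tumors with a median of 0.91 with and 0.91 without that array, when 11 of 11 were above 0. Other fibroblast markers had a median of 1.33, and 0.48 without it, when 15 of 16 were above 0. The part of these markers in the matrix values was not tested. The test of the difference between the radiation responses of the 2 genotypes gave 4 members with a higher response in miR-21-/- tumors at the criterion of the study (*Fn1*, *Lamb1*, *Fbln2* and *Bgn*) and 1 with a lower one (*Col11a1*), against 1.66% and 2.25% of all genes. Of the 44, 0 passed the adjusted threshold in limma (0.00432% of all genes did), and 6 had an unadjusted p under 0.05 (8.025% of all genes did). The median difference between the responses was 1.04 over the members, and 0.42 without the first irradiated miR-21-/- array. The genotype and radiation comparisons share arrays with each other.

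**Figure D4:**
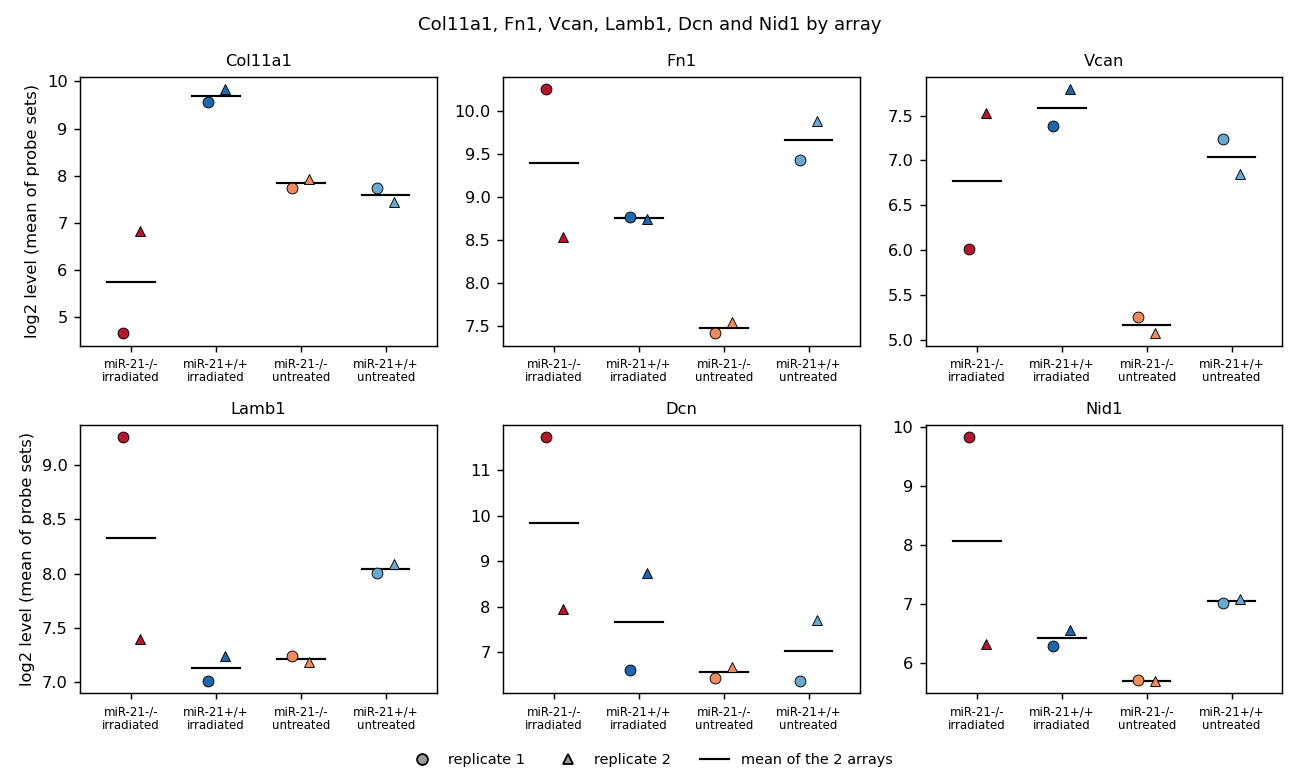
Log2 level (mean of probe sets) of *Col11a1*, *Fn1*, *Vcan*, *Lamb1*, *Dcn* and *Nid1* in each array, with circles for replicate 1, triangles for replicate 2 and bars for the mean of the 2 arrays. *Col11a1* was highest in irradiated miR-21+/+ tumors and lowest in irradiated miR-21-/- tumors. The first irradiated miR-21-/- array was the highest array for *Fn1*, *Lamb1*, *Dcn* and *Nid1*.

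Replicates of the matrix genes were close together in 3 of the 4 groups. The median gap between the 2 arrays over the members was 1.53 in irradiated miR-21-/- tumors, 0.30 in irradiated miR-21+/+ tumors, 0.19 in untreated miR-21-/- tumors and 0.29 in untreated miR-21+/+ tumors. Over all genes the gap was 0.32 in irradiated miR-21-/- tumors and 0.18 to 0.20 in the other groups. A gap of at least 1 was found in 30 members in irradiated miR-21-/- tumors, against 3 in irradiated miR-21+/+, 0 in untreated miR-21-/- and 2 in untreated miR-21+/+ tumors. The first irradiated miR-21-/- array was the highest of the 8 arrays in 31 members and the lowest in 6, which were *Col12a1*, *Tnc*, *Col11a1*, *Col8a1*, *Col16a1* and *Ctgf*. The 2 arrays differed by 0.02 in *Thbs1*, 0.02 in *Col1a1* and 0.01 in *Postn*.

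**Figure D5:**
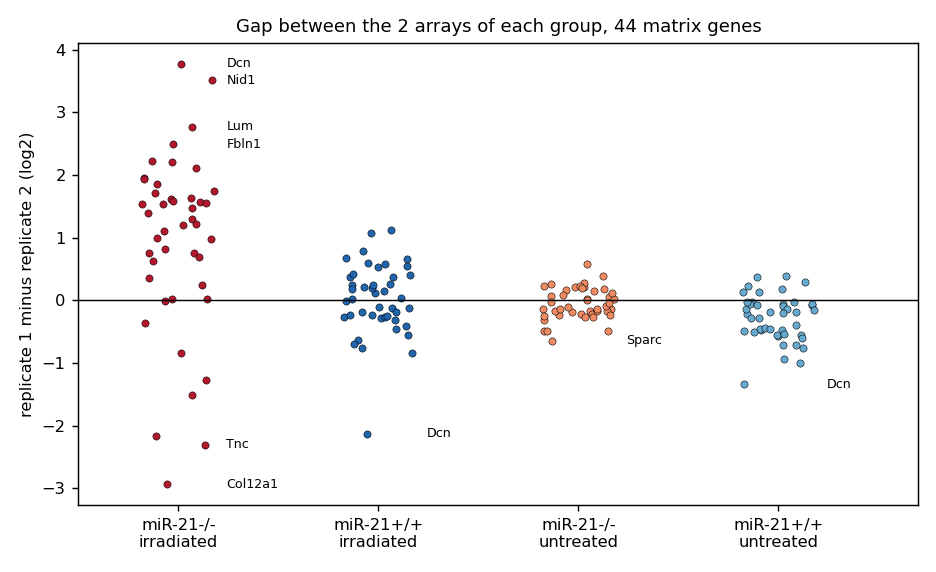
Replicate 1 minus replicate 2 on the log2 scale for the 44 members in each group, 1 point per gene. The points of the irradiated miR-21-/- tumors run between -2.94 (*Col12a1*) and 3.78 (*Dcn*), and those of the untreated miR-21-/- tumors stay within 0.64 of 0.

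Genes that fold, modify and trim procollagen included 4 that were lower in the absence of miR-21. Of 28 such genes listed, 26 were measured, and over both treatments 4 lower genes had an adjusted p under 0.05 (median of the list -0.21), against 1.98% of all genes, and 8 without the first irradiated miR-21-/- array, against 4.22%. *Plod2*, encoding a lysyl hydroxylase of collagen, fell by 1.30 (adjusted p = 0.0208 in limma). The procollagen C-proteinase gene *Bmp1* fell by 0.76 over both treatments (adjusted p = 0.0292) and by 1.62 in untreated tumors (adjusted p = 0.023), where its levels were 5.43 and 5.68 in miR-21-/- against 7.07 and 7.29 in miR-21+/+ tumors. *Loxl3*, a further lysyl oxidase gene, fell by 0.89 (adjusted p = 0.0208), and *P4hb*, encoding the beta subunit of prolyl 4-hydroxylase, by 0.99 (adjusted p = 0.0253). *P4hb* lies on chromosome 11, as *Mir21* does, at a distance not given here. Its 40 nearest measured genes had a median of -0.68 over both treatments, 33 of them lower. The members *Col1a1* and *Sparc* are on chromosome 11 too. *Col1a1* had a mean difference of -0.09 over both treatments, and *Sparc* differed by 0.68 in irradiated and -0.41 in untreated tumors. Whether the region accounts for the *P4hb* value was not tested. Among 22 receptors of collagen and matrix the median was -0.38, and -0.13 without the first irradiated miR-21-/- array, with *Itga2* lowest at -1.10 (adjusted p = 0.112) and *Itga1* highest at 0.54 (-0.92 and 0.12 without that array). Of 25 measured collagen genes that are not members, *Col20a1* rose by 0.66 (adjusted p = 0.0425).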

How the data were processed

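The authors extracted total RNA and hybridized it to Affymetrix Mouse Gene ST arrays, and the submitters' processing notes name RMA, Affymetrix Expression Console 1.4 and Transcriptome Analysis Console 3.1. The deposited values are normalized log2 signals of 269751 exon-level probe sets in 8 arrays, of which 233753 carry 1 gene symbol, 5139 several and 30859 none in the platform annotation. RMA compresses differences of dim probe sets. Probe sets with 1 symbol were averaged per gene, giving 23152 genes.

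A linear model of the 4 group means was fitted to all genes over the 8 arrays (limma 3.58.1, R 4.3.3), and 7 comparisons were made: genotype in irradiated and in untreated tumors, radiation in each genotype, the difference between these responses, and the genotype and radiation means. Adjusted p-values (Benjamini-Hochberg) cover all genes of a comparison. The criterion of the study was a change of 2-fold or more together with an unadjusted p under 0.05. The fit was tested on simulated data with known changes. The simulated arrays shared the same spread for each gene and none was an outlier. That test therefore does not show how the fit behaves with the first irradiated miR-21-/- array. Exact permutation tests used scipy 1.17.1.

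The members and all lists (collagen biosynthesis, receptors, other collagens and the cell type markers) were chosen with earlier results of these data known. All 44 members are named. Values of every array are given for members past the adjusted threshold, for the 3 highest and 3 lowest past the criterion of the study in comparisons between 2 groups, and for the member of each role with the highest mean signal. Genes of related lists are named where the adjusted p was under 0.05, with the highest and lowest otherwise.

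Alternatives were no variance moderation, the 4 arrays of a comparison alone, quantile normalization, robust estimation with a variance trend, a filter on dim genes, median centring, medians of probe sets, array weights, the replicate number as a block, and leaving out each array in turn. The alternative without moderation also used only the 4 arrays of a comparison between 2 groups. The number of arrays, 2 per group, limits the precision. Gene symbols are those of the annotation, and promoter and miRNA sequences come from RefSeq (GRCm38.p6).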

Additional observations from a re-analysis of the deposited data

Results flagged for a closer look

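In groups of 4 arrays of one genotype, the mean of each list of genes was screened for an array whose gap to its nearest neighbour, divided by the range of the group, was above Dixon's 95% value for 4 samples. Of 42 such groups 10 passed. Among independent groups of like samples, chance flags about 1 in 20, or about 2.1 of 42. The groups here share arrays and some genes, and each mixes irradiated and untreated arrays. The 10 can therefore not be weighed against that number. The first irradiated miR-21-/- array was the high array in 7 of the 10, with 8.40 for the basement membrane genes against 6.33 to 6.49 among the remaining 3 of that genotype (ratio 0.921). It was likewise high for the fibrillar collagens (7.55 against 7.15 to 7.18, ratio 0.934), the fibronectin and elastic fiber genes (8.35 against 6.65 to 6.93, ratio 0.838), the genes of collagen biosynthesis (6.86 against 6.30 to 6.39, ratio 0.841), and the adipocyte (ratio 0.940), endothelial (ratio 0.940) and pericyte markers (7.04 against 5.89 to 5.95, ratio 0.952).

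The remaining 3 were in miR-21+/+ tumors. Over all 44 members, replicate 2 of the untreated tumors stood high (7.27 against 6.99 to 7.03, ratio 0.854). Replicate 1 of the irradiated tumors stood high in the basal epithelial markers (5.90 against 5.43 to 5.49, ratio 0.871), and replicate 1 of the untreated tumors low in the pericyte markers (5.93 against 6.19 to 6.21, ratio 0.933).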

How the results depend on the processing

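The median log2 fold change of the members moved with the arrays used. Leaving out each array in turn gave medians of -0.026 to 1.10 for genotype in irradiated tumors, -0.66 to -0.27 for genotype in untreated tumors, 0.38 to 1.47 for radiation in miR-21-/- tumors, -0.34 to 0.08 for radiation in miR-21+/+ tumors, 0.42 to 1.76 for the difference between these responses, -0.24 to 0.23 for the genotype mean and 0.09 to 0.69 for the radiation mean. In the same order of comparisons, the number of members at the criterion of the study was 4 to 31, 2 to 8, 3 to 33, 1 to 3, 3 to 33, 4 to 11 and 0 to 9, and the number at an adjusted p under 0.05 was 0 to 34, 0 to 13, 0 to 34, 0 to 2, 0 to 31, 0 to 20 and 0 to 29. In comparisons that use the irradiated miR-21-/- tumors, the highest counts at an adjusted p under 0.05 came from leaving out their second array. That group is then represented by replicate 1 alone. Shares of all genes are not given for these settings, so the counts do not show whether matrix genes differed from other genes.

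Without moderation of the variances, the criterion of the study was met by 2 members for genotype in irradiated tumors, 0 for radiation in miR-21-/- tumors, 1 for radiation in miR-21+/+ tumors, 2 for the difference between these responses and 0 for the radiation mean, and no call of an adjusted p remained for genotype in irradiated tumors or the genotype mean (0 each). With the 4 arrays of a comparison alone, 4 members met the criterion for genotype in irradiated and 6 for radiation in miR-21-/- tumors, and 0, 9 and 1 passed the adjusted threshold for genotype in irradiated tumors, genotype in untreated tumors and radiation in miR-21+/+ tumors. A variance trend gave 4 at the criterion for genotype in untreated tumors and 1 for the radiation mean, and quantile normalization 3 for genotype in untreated tumors. *Col11a1* in irradiated tumors lost its call (0 members) under a variance trend, quantile normalization (adjusted p = 0.0677) and medians of probe sets, and quantile normalization left 1 gene for the genotype mean. Array weights gave 6, 1 and 5 members at an adjusted p under 0.05 for genotype in untreated tumors, radiation in miR-21+/+ tumors and the genotype mean, and 16 at the criterion for the difference between responses. For the radiation mean, genes above the median level gave 1 and medians of probe sets 4 at the criterion. The causes of these changes were not tested, and no share of all genes is given beside these counts.

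Same-numbered arrays had correlations of deviations between -0.133 and 0.042, which gave no sign that the replicate numbers pair the samples. With 2 arrays per group, these values cannot exclude a shared batch. With the replicate number as a block, *Col11a1* in irradiated tumors had an adjusted p of 0.0664 (0 members called), and 1 member met the criterion for the radiation mean. A crossed pairing, added after seeing the data, gave 0 members at an adjusted p under 0.05 and 12 at the criterion in irradiated tumors. Of the single-gene results, 293 kept their side of the threshold, 36 gained and 28 lost a call, and 0 reversed. With 2 arrays per group, 1 array decides the spread of its group.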

Other observations

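Members that lie next to each other in the genome can be read side by side. *Dcn* and *Lum*, adjacent on chromosome 10, had differences of 3.29 and 1.81 between irradiated and untreated miR-21-/- tumors, and *Col6a2* and *Col6a1*, adjacent on the same chromosome, 1.08 and 1.09. *Col3a1* and *Col5a2*, adjacent on chromosome 1, had 1.26 and 0.44. Without the first irradiated miR-21-/- array these were 1.4 and 0.42 for *Dcn* and *Lum*, 0.35 and 0.29 for *Col6a2* and *Col6a1*, and 0.49 and 0.13 for *Col3a1* and *Col5a2*. The collagen receptor gene *Ddr2* was at -1.64 in untreated tumors by genotype and at 2.79 between irradiated and untreated miR-21-/- tumors, where it was 0.90 without that array. These values are given without a test of the neighbours.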
